A study of Homo sapiens with 20 samples.

Results

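The homologous recombination and Fanconi anemia genes are 39 DNA repair genes that were read from the FPKM table of orthotopic OVCAR8 tumors. The genes were listed by function, by symbol and without a rule on their values, with earlier results of these data known. All 39 symbols were found among the 24196 genes of the table, and 38 of them had a mean of at least 0.5 FPKM over the 8 libraries, the level at which a gene was tested. FPKM divides the fragments of a gene by its length and by the fragments of its library, so that levels of different genes can be set side by side. The gene below that level was DMC1.

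OVCAR8 is a human ovarian cancer cell line, and the tumors were grown in NSG mice, which lack mature lymphocytes. 4 libraries came from tumors of mice given PBS, and 4 came from tumors of mice given gluconate. This is what the labels say, whereas the text of the study calls the RNA of this comparison that of gluconate-treated cells, and the labels were followed here without a way to settle it. If the labels are wrong, the values describe cultured cells and the regimen does not apply. The labels give no dose, and the study's methods describe weekly i.p. PBS or 1 mg/kg sodium gluconate over 35 days, in mice that received luciferase-tagged cells in the ovarian fat pad at 6 weeks of age. In the study, the tumors given PBS or gluconate grew from OVCAR8 cells that carry sgNC, its control guide, which the labels of these libraries do not name. Both groups carried OVCAR8, so the results describe 1 cell line. The study examined gluconate, which it calls a modulator of the membrane protein TMEM87A, as a candidate treatment, and the comparison asks how the RNA of these tumors differed between gluconate and PBS. The labels do not say that each library came from a mouse of its own, and p values then measure the spread between these libraries only.

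The 8 libraries were not alike. PBS replicate 4 held 3953206 fragments, and the other 7 held between 39325749 and 46551535. Its log2 values had correlations of 0.938 to 0.951 with the other libraries across genes, against 0.980 to 0.994 among the other 7. Of the ovarian carcinoma markers, 7 of 10 had a mean of at least 1 FPKM (PAX8, EPCAM, KRT7, KRT8, KRT18, WT1 and MSLN), and KRT19, MUC16 and CDH1 were under 0.5 FPKM in every library. Markers of endothelial cells, adipocytes and red blood cells summed to at most 0.707 FPKM in every library. Because of PBS replicate 4, the comparison was fitted with and without it. In bulk tumors, fewer cells of a type and less RNA per cell cannot be told apart.

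Homologous recombination repairs broken DNA by copying an intact sister sequence. The kinases ATM and ATR respond to the break, the MRE11, RAD50 and NBN complex with RBBP8 and EXO1 trims its ends, and BRCA1, PALB2 and BRCA2 prepare the exposed strand for the search. RAD51B, RAD51C, RAD51D, XRCC2 and XRCC3 form presynaptic complexes on that strand, RAD54L helps strands pair, and BLM with RMI1 and RMI2 takes the joined molecules apart. The Fanconi anemia pathway handles crosslinks between DNA strands. Its core complex, with the E3 ligase FANCL and the E2 enzyme UBE2T, attaches ubiquitin to FANCD2 and FANCI, and nucleases such as FAN1 and those held by SLX4 then cut at the crosslink. Inherited loss of BRCA1, BRCA2, PALB2, BRIP1, RAD51C or RAD51D raises the risk of cancer, and loss of this repair route is a known feature of high-grade serous ovarian cancer.

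Many genes of this pathway are transcribed in S phase, so the start regions were searched for letters that E2F factors and the CHR and CCAAT-binding factors are known to read. A start region here runs from 250 bases before to 50 bases after the gene start in RefSeq on GRCh38.p14, and 35 of the 39 genes had one. E2F letters (TTTGGCGC, TTTGCCGC, TTTCGCGC or TTTCCCGC on either strand) stood in 6 of the 35 regions, or 17.1%. The genes were DMC1, EXO1, FANCA, FANCC, FANCD2 and XRCC2. The share was 3.31% of 35116 RefSeq regions, 5.6% of the regions of tested genes and 48.1% of those of a list of S phase and mitosis genes. TTTGAA (CHR) stood in 11.4% of the regions, against 15.2% of all RefSeq regions, 9.23% of those of tested genes and 25.9% of the S phase and mitosis list. CCAAT stood in 40%, against 34.6%, 36.7% and 74.1%. The median region held 28 CG pairs, against 14 over all RefSeq regions. A match is a string of letters and not a shown binding site.

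The start regions of 5 genes are printed, and no result below rests on them. BRCA2 stood apart between the groups without PBS replicate 4, and RAD52 stood apart in PBS replicate 4. Both held none of the searched motifs. UBE2T was the most abundant of the 39, and EXO1 and FANCD2 held E2F letters. Capitals mark the motifs as they read on the printed strand, which is the strand of the gene. In UBE2T these are TTTGAA followed by CCAAT at 2 places, in EXO1 TTTCGCGC, and in FANCD2 GCGGGAAA, the E2F letters of the other strand. BRCA2 lies at chr13:32315258-32315557 on the plus strand, RAD52 at chr12:949645-949944 on the minus strand, UBE2T at chr1:202341887-202342186 on the minus strand, EXO1 at chr1:241847954-241848253 on the plus strand and FANCD2 at chr3:10026187-10026486 on the plus strand.
BRCA2: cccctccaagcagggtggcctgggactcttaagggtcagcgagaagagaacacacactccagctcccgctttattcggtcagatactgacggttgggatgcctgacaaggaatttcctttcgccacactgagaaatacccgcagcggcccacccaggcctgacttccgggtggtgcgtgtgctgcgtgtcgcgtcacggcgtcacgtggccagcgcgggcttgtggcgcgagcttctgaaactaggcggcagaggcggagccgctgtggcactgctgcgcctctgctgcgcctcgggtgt
RAD52: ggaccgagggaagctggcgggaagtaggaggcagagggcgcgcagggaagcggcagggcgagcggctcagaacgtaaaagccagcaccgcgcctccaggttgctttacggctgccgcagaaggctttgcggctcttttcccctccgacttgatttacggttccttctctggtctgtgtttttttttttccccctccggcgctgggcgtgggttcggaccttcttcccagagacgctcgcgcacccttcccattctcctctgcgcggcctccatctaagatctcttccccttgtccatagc
UBE2T: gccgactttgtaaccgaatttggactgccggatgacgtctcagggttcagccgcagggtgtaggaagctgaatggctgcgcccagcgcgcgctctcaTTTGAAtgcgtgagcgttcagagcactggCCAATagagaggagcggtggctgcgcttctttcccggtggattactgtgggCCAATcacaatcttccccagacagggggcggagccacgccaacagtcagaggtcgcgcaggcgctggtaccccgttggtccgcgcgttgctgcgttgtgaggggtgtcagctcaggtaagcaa
EXO1: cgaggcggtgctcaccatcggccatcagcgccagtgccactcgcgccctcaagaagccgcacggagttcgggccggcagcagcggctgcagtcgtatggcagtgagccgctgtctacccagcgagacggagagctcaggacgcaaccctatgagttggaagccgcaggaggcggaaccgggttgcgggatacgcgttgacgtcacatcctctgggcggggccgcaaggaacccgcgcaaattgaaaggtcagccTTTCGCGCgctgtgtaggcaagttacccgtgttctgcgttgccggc
FANCD2: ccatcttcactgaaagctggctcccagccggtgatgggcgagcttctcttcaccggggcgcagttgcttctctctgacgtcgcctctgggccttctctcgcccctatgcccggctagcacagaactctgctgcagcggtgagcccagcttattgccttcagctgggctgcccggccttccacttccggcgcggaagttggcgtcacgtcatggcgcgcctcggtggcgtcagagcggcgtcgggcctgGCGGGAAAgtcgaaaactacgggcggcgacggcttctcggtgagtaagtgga

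In these tumors the levels of the 39 genes differed widely. 12 of the 39 genes had a mean of at least 10 FPKM, 8 lay between 5 and 10, 16 between 1 and 5, and 3 under 1. The median of the 38 means was 5.84 FPKM, against 6.64 over all 12486 genes tested. UBE2T was the most abundant, at a mean of 43.8 FPKM, followed by RMI2 at 21.7, NBN at 20.4, FANCI at 18.4 and CHEK1 at 16.9 FPKM. The least abundant were DMC1, at 0.200, RAD51B, at 0.740, and FANCC, at 0.871 FPKM. In the 7 deeply sequenced libraries the coefficient of variation of the 38 genes had a median of 8.97%, and it ran from 5.45% for PALB2 to 16.9% for RAD51B. The same median over all genes tested was 9.74%.

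With all 8 libraries, none of the 38 repair genes tested passed the threshold between gluconate and PBS tumors. In that fit 0 of 38 genes were lower and 0 were higher at an unadjusted p under 0.05 in limma's moderated test on log2(FPKM + 0.1), against 1.49% lower and 3.13% higher of all genes tested. The 2 groups were fully apart for 0 of 38 genes, against 1.41% (gluconate lower) and 2.08% (higher) of all genes. At a 2-fold change and an unadjusted p under 0.05, the same shares over all genes were 0.104% lower and 0.192% higher, and none of the 38 genes was among them. The smallest adjusted p of the 38, with limma and Benjamini-Hochberg adjustment over 12486 genes, was 0.740. No gene tested had a smaller one.

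How far apart the groups could be was limited for most genes. The 95% interval of the difference lay within 1.5-fold in either direction for 32 of 38 genes with all 8 libraries, and for 38 of 38 without PBS replicate 4. The 6 exceptions with all libraries were PALB2, BRIP1, RAD51B, FANCB, FANCC and FANCF, and only the interval of FANCF reached past 2-fold. The median distance from the estimate to the end of its interval was 0.30 on the log2 scale with all 8 libraries and 0.23 without PBS replicate 4.

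The sign of the small differences depended on whether PBS replicate 4 was kept. With all 8 libraries 25 genes were above 0 and 13 below, against 66.4% of all genes above 0, and their median difference (gluconate minus PBS) was 0.04 on the log2 scale, beside 0.07 for all genes tested. Without PBS replicate 4, 13 were above 0 and 25 below, against 48.9% of all genes above 0, and the median was -0.06, beside -0.00 for all genes. Scaling the 8 libraries by median ratios moved the median of all genes from 0.07 to 0.00 and split the 38 genes into 18 above and 20 below, with 50.9% of all genes above 0.

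**Figure D1:**
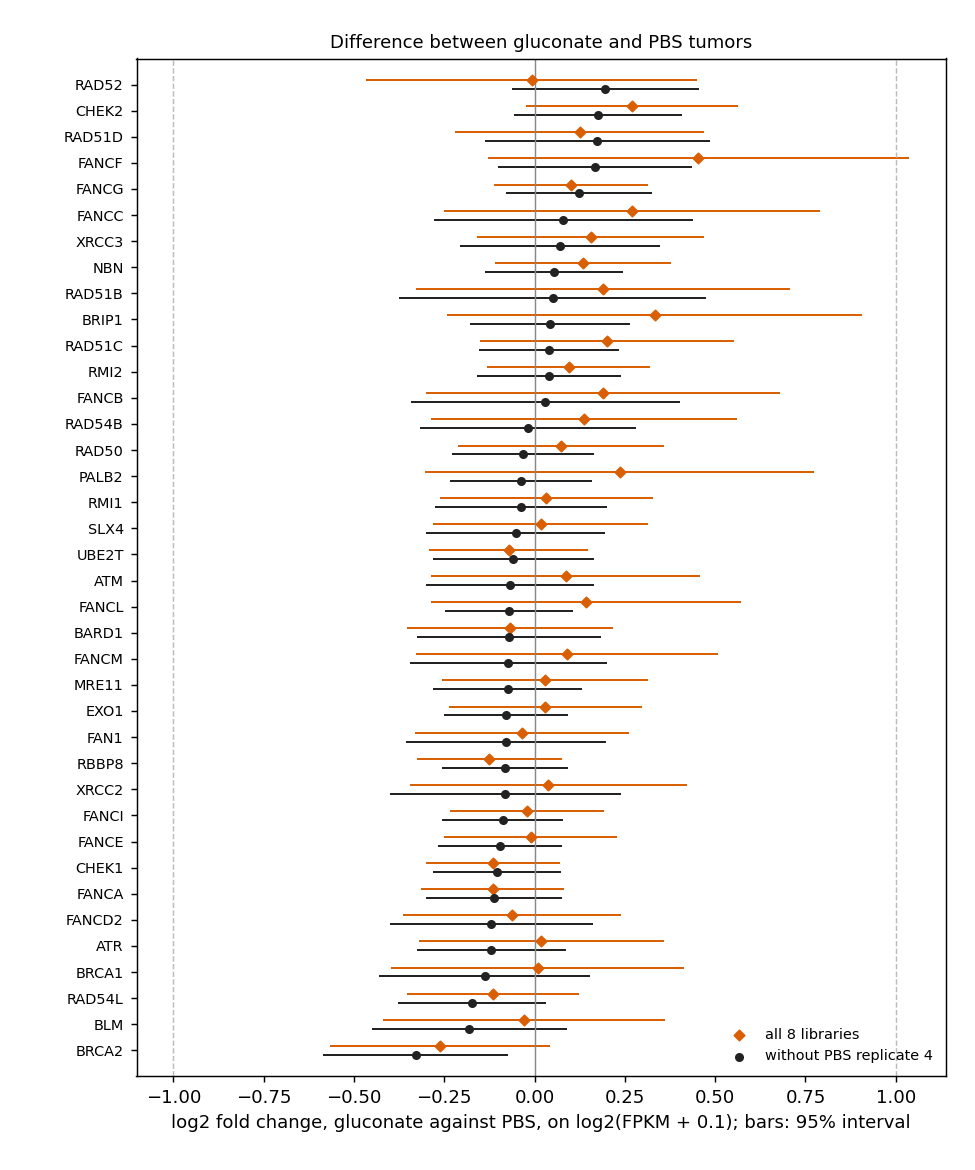
log2 fold change of gluconate against PBS on log2(FPKM + 0.1) for the 38 tested genes, with 95% intervals, for all 8 libraries (diamonds) and without PBS replicate 4 (circles). Dashed lines mark 2-fold, and BRCA2 without PBS replicate 4 is the only interval that leaves out 0.

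Among the damage kinases, CHEK1, the checkpoint kinase that ATR activates, had the highest level. It measured 17.3, 16.0, 18.9 and 17.9 FPKM in PBS replicates 1 to 4 and 15.4, 16.2, 15.5 and 17.5 FPKM in gluconate replicates 1 to 4. The groups overlapped (log2 difference -0.12 ± 0.08, SE, as for all differences below, and -0.10 ± 0.08 without PBS replicate 4). CHEK2, which acts below ATM, came nearest to the threshold of the 38 genes with all libraries. It measured 8.33, 6.18, 7.06 and 5.50 FPKM in PBS and 8.17, 8.01, 7.54 and 8.64 FPKM in gluconate tumors, and its values were chosen for print after they were seen. PBS replicate 1 lay among the gluconate tumors and the other 3 PBS tumors lay below them. The difference was 0.27 ± 0.13 on the log2 scale (limma adjusted p = 0.740), and without PBS replicate 4 it was 0.18 ± 0.10. Without PBS replicate 1 the groups no longer overlapped and CHEK2 passed an unadjusted p under 0.05, as did 9.72% of all genes tested, with a log2 difference of 0.37 ± 0.11 (limma adjusted p = 0.491, and 0.491 to 0.902 over all settings). GENCODE lists 4 numbered CHEK2 pseudogenes, so that reads may have been shared with them. The same holds for MRE11, RBBP8 and FANCD2, through MRE11P1, RBBP8P1 and FANCD2P2. ATM and ATR had differences of 0.09 ± 0.17 and 0.02 ± 0.15 on the log2 scale with all libraries, and of -0.07 ± 0.10 and -0.12 ± 0.09 without PBS replicate 4.

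Of the end resection genes, NBN, the part of the MRE11 complex that recruits ATM, was the most abundant. It measured 23.0, 20.6, 18.1 and 16.3 FPKM in PBS and 20.5, 22.6, 21.1 and 20.8 FPKM in gluconate tumors, and the groups overlapped (log2 difference 0.13 ± 0.11, and 0.05 ± 0.09 without PBS replicate 4). NBN stood at 2.04 to 2.77 times the FPKM of MRE11 in the 7 deep libraries and at 2.44 times in PBS replicate 4, and at 2.82 to 3.43 times that of RAD50, against 3.26 times in PBS replicate 4. RBBP8, which encodes CtIP, the factor that starts resection, measured 15.0, 14.0, 16.4 and 17.1 FPKM in PBS and 15.1, 14.7, 14.0 and 13.3 FPKM in gluconate tumors. Its difference, the second lowest of the 38, was -0.12 ± 0.09 on the log2 scale, and -0.08 ± 0.08 without PBS replicate 4. MRE11, RAD50 and the exonuclease EXO1 had differences between 0.03 and 0.07 with all libraries, and below 0, from -0.03 for RAD50 to -0.08 for EXO1, without PBS replicate 4. Of the exon bases of RAD50, 79.7% lie in same-strand exons of a second annotated gene, so that its level is uncertain.

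BRCA2, which acts on resected DNA and lies at chr13:32315077-32400268 (RefSeq on GRCh38, as for the genes below), was the lone gene that passed the unadjusted test without PBS replicate 4. It measured 2.23, 2.45, 2.25 and 1.90 FPKM in PBS and 2.10, 1.77, 1.78 and 1.65 FPKM in gluconate tumors. All 4 gluconate tumors lay below PBS replicates 1 to 3, while PBS replicate 4 lay among them. With all 8 libraries the PBS mean was 2.21 ± 0.225 FPKM and the gluconate mean 1.82 ± 0.194 FPKM (SD, n = 4 each). The log2 difference was -0.26 ± 0.14, and BRCA2 missed an unadjusted p under 0.05 in limma's fit (adjusted p = 0.740). Without PBS replicate 4 the difference was -0.33 ± 0.11, with a 95% interval of -0.58 to -0.07 (limma adjusted p = 0.802). BRCA2 was then 1 of 38 genes, or 2.63%, that were lower, against 3.36% of all genes tested. The same share did not overlap, against 3.65% of all genes. On the higher side, 0 of 38 genes passed the test, against 2.83% of all genes, and 0 of 38 did not overlap, against 2.41%. Shares at or below those of all genes give no result about the pathway.

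With all 8 libraries, BRCA2 also passed the unadjusted test after median-ratio scaling (log2 difference -0.33), quantile normalization (-0.35), without moderation (-0.26) and with limma's voom on recovered fragments (-0.33). Its adjusted p ran from 0.529 to 0.902 over all settings. PBS replicate 4 held 90 BRCA2 fragments, which put its level between 1.53 and 2.34 FPKM by the exact 95% Poisson interval, a range that covers all gluconate tumors and PBS replicates 1 and 3. Such intervals cover counting error only.

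BRCA1, the partner of BARD1 in a ubiquitin ligase (chr17:43044295-43170327), measured 2.34, 2.34, 2.31 and 1.52 FPKM in PBS and 1.72, 2.52, 2.21 and 2.06 FPKM in gluconate tumors. The gluconate tumors spread on both sides of PBS replicates 1 to 3 and all lay above PBS replicate 4. The means were equal to 3 digits, at 2.13 ± 0.405 and 2.13 ± 0.331 FPKM (SD, n = 4), and the log2 difference was 0.01 ± 0.18 with all libraries and -0.14 ± 0.13 without PBS replicate 4. PALB2, the bridge between BRCA1 and BRCA2, had the highest level of this group, at 4.14, 3.95, 3.54 and 1.76 FPKM in PBS and 3.80, 3.94, 3.68 and 3.66 FPKM in gluconate tumors. Apart from PBS replicate 4, all PALB2 values lay within a narrow band. BRIP1, a helicase that binds BRCA1, followed the same pattern, at 3.63, 3.06, 3.25 and 1.43 FPKM in PBS and 3.31, 3.71, 3.15 and 3.50 FPKM in gluconate tumors. Its difference was 0.33 ± 0.26 on the log2 scale with all libraries and 0.04 ± 0.10 without PBS replicate 4, and that of PALB2 was 0.24 ± 0.24 and -0.04 ± 0.09.

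The 5 genes of the presynaptic complexes, which act before strands pair, were led by RAD51C. It measured 12.7, 11.3, 12.9 and 7.85 FPKM in PBS and 12.6, 14.3, 12.0 and 11.8 FPKM in gluconate tumors, with overlapping groups (log2 difference 0.20 ± 0.16, and 0.04 ± 0.09 without PBS replicate 4). The 5 genes had differences from 0.04 for XRCC2 to 0.20 for RAD51C with all libraries, and from -0.08 for XRCC2 to 0.17 for RAD51D without PBS replicate 4. XRCC3, the partner of RAD51C, has 76.7% of its exon bases within opposite-strand exons of KLC1, and the sources used here do not say whether counting used strand, so its level of 8.31 to 12.7 FPKM may hold reads of KLC1.

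Among the strand exchange genes, RAD54L, a motor protein that moves along DNA, measured 10.7, 12.5, 13.0 and 10.2 FPKM in PBS and 10.2, 11.9, 10.1 and 10.5 FPKM in gluconate tumors. The groups overlapped (log2 difference -0.11 ± 0.11, and -0.17 ± 0.09 without PBS replicate 4). RAD54B, its relative, lay between 1.20 and 2.12 FPKM, and 59.1% of its exon bases lie in same-strand exons of FSBP, so that its level is uncertain. DMC1, a meiotic strand exchange gene, rested on 4 fragments in PBS replicate 4 and 11 to 33 in each of the others. Its two-sided exact permutation p was 0.857 with all 8 libraries and 0.629 without PBS replicate 4, where the smallest possible p is 0.0286. Of 16 other meiotic genes in the table, 10 stayed below 1 FPKM in every library, among them SPO11, SYCP3 and MSH4. STAG3, a meiotic cohesin subunit, was expressed, at 11.0 to 16.6 FPKM. SYCP1, SYCP2, SMC1B, REC8 and MEI1 were expressed too, at means from 2.89 FPKM for SYCP1 to 5.38 FPKM for MEI1.

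In the dissolution complex, RMI2 measured 20.3, 24.3, 20.8 and 18.6 FPKM in PBS and 20.1, 23.3, 21.9 and 24.1 FPKM in gluconate tumors, and the groups overlapped (log2 difference 0.09 ± 0.10, and 0.04 ± 0.09 without PBS replicate 4). It stood at 8.21 to 10.3 times the FPKM of RMI1 in the 7 deep libraries and at 9.90 times in PBS replicate 4. BLM, the helicase of the complex, had the second lowest difference without PBS replicate 4, at -0.18 ± 0.12, and -0.03 ± 0.17 with all libraries.

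The Fanconi core genes held both the most abundant gene, UBE2T, and FANCC, at under 1 FPKM. UBE2T, the E2 enzyme, measured 47.1, 37.3, 49.5 and 45.9 FPKM in PBS and 45.8, 43.6, 40.4 and 40.6 FPKM in gluconate tumors. Its lowest and highest values were both PBS tumors (log2 difference -0.07 ± 0.10, and -0.06 ± 0.10 without PBS replicate 4). FANCF, an adaptor within the core complex, had the largest difference of the 38 genes, from 5.88, 5.30, 4.54 and 2.31 FPKM in PBS and 5.06, 6.75, 6.15 and 5.64 FPKM in gluconate tumors. PBS replicate 4, on 30 fragments, was the lowest and the groups overlapped. The difference was 0.45 ± 0.26 on the log2 scale, with a 95% interval of -0.13 to 1.04 (limma adjusted p = 0.740), and it was 0.17 ± 0.12 without PBS replicate 4. Without PBS replicate 1 it was 0.61 ± 0.26 and passed an unadjusted p under 0.05 (limma adjusted p = 0.505, and 0.505 to 0.902 over all settings).

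FANCC, also of the core, measured 1.01, 0.983, 0.709 and 0.484 FPKM in PBS and 0.952, 0.888, 1.00 and 0.943 FPKM in gluconate tumors, and its groups overlapped (log2 difference 0.27 ± 0.23, and 0.08 ± 0.16 without PBS replicate 4). FANCA, the scaffold partner of FANCG, measured 10.5, 12.7, 12.9 and 12.1 FPKM in PBS and 11.1, 10.9, 11.6 and 10.8 FPKM in gluconate tumors. PBS replicate 1 lay below the gluconate tumors and the other 3 PBS tumors above them (log2 difference -0.12 ± 0.09, and -0.11 ± 0.08 without PBS replicate 4). Reads of opposite-strand genes may be held by several of the 39 besides XRCC3. The share of exon bases within opposite-strand exons is 25.1% for RAD54L (LRRC41), 24.3% for FAN1 (MTMR10), 23.6% for FANCA (ZNF276), 19.7% for FANCL (VRK2 and AC007250.1), 16.4% for ATR (AC109992.1) and 11.3% for FANCF (GAS2), and at most 7.16% for the others. FANCI, the partner of FANCD2, measured 20.2, 18.8, 19.2 and 16.1 FPKM in PBS and 18.3, 20.2, 16.9 and 17.7 FPKM in gluconate tumors. FANCI stood at 2.32 to 3.30 times FANCD2 in the 7 deep libraries and at 2.71 times in PBS replicate 4. The nuclease FAN1 measured 3.48, 4.28, 4.71 and 3.64 FPKM in PBS and 3.43, 4.39, 4.00 and 3.84 FPKM in gluconate tumors. FANCI and FAN1 overlapped between the groups, with differences of -0.02 ± 0.10 and -0.04 ± 0.13 on the log2 scale, and of -0.09 ± 0.07 and -0.08 ± 0.12 without PBS replicate 4.

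PBS replicate 4 was the lowest of the 8 libraries for 27 of 38 genes, or 71.1%, against 58% of all genes tested, and the highest for RBBP8 and RAD52, or 5.26%, against 13.7%. For 9 of 38 genes, or 23.7%, the exact 95% Poisson interval of its fragments also lay below the other 7 libraries, against 27.5% of all genes. These were ATM, ATR, RAD50, PALB2, BRIP1, RAD51C, FANCF, FANCL and FANCM, and their share is close to that of all genes. The difference of at least 2-fold from the lowest of the other libraries was reached by PALB2, with 35 fragments in that library, and BRIP1, with 68, or 5.26% of the genes, against 4.19% of all. On the higher side, 0 of 38 reached 2-fold, against 2.48% of all genes.

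RAD52, a factor that anneals DNA strands (chr12:911736-991122), went the other way. The start printed above for RAD52 lies within these bounds, which reach further upstream, and the same holds for BRCA2 and EXO1. RAD52 measured 2.40, 2.26, 1.83 and 3.87 FPKM in PBS and 2.53, 2.34, 2.45 and 2.60 FPKM in gluconate tumors, and its values were chosen for print after they were seen. PBS replicate 4 lay above the other 7 libraries, and its 75 fragments put the level at 3.04 to 4.85 FPKM by the exact 95% Poisson interval. RAD52 was 1 of 38 genes, or 2.63%, beyond that interval on the higher side, against 7.5% of all genes. The log2 difference between gluconate and PBS was -0.01 ± 0.20 with all libraries and 0.20 ± 0.12 without PBS replicate 4.

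Of 13 ratios between partners, 8 lay within the range of the other 7 libraries in PBS replicate 4, and 5 lay outside it, 3 of them also by the exact 95% binomial interval of the 2 fragment counts. Ratios of other gene pairs were not counted, so these counts give no result about the partners. UBE2T stood at 5.76 to 6.62 times the FPKM of FANCL in the 7 deep libraries and at 11.8 times (8.08 to 17.6) in PBS replicate 4. BRCA2 stood at 0.450 to 0.635 times PALB2 in the 7 and at 1.08 times (0.725 to 1.65) in PBS replicate 4. CHEK1 stood at 3.98 to 5.16 times ATR, and at 6.78 times (5.35 to 8.68) in PBS replicate 4. The denominators of these 3 ratios, FANCL, PALB2 and ATR, each lay below the other 7 libraries there by their Poisson intervals. The ratios of BRCA1 to BARD1, 0.913 there on 43 and 37 fragments, and of XRCC2 to RAD51D, 3.17, lay below the range of the 7, but their intervals, of 0.574 to 1.46 and 2.28 to 4.44, reached into it. The 8 ratios within the range were NBN to MRE11 and to RAD50, RMI2 and BLM to RMI1, FANCI to FANCD2, FANCA to FANCG, CHEK2 to ATM and RAD51C to XRCC3.

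As a group, the 38 genes had a median shift of -0.37 on the log2 scale in PBS replicate 4 from the median of the other libraries, beside -0.28 for all genes tested and -0.16 for the 32 S phase and mitosis genes. Other lists reached as far, with -0.48 for 14 Fanconi-associated genes, of which 78.6% were lowest there, and -0.52 for 6 meiotic genes. The 29 other recombination genes had -0.30, with 79.3% lowest there, against 71.1% of the 38. The remaining 5 lists lay between -0.30 and -0.14. In 2 scalings chosen after the data were seen, it was the lowest library for 13 of the 38 genes (34.2%, against 33% of all genes tested) and the highest for 8 (21.1%, against 31.9%) with median ratios. With quantile normalization it was the lowest for 12 (31.6%, against 35.1%) and the highest for 8 (21.1%, against 25.4%). The larger share of lowest values among these genes was thus not seen after scaling, and the median shift was -0.10 with median ratios, beside -0.01 for all genes, and -0.12 with quantile normalization, beside -0.06. In gluconate replicate 2 the 38 genes had the highest median, at 0.14, and 12 of them, or 31.6%, had their highest value there, against 15.6% of all genes. That share was 50% for the Fanconi-associated genes, 27.6% for the other recombination genes and 21.9% for the S phase and mitosis genes. For end joining genes it was 0%, and for single-strand break repair genes 15.4%. Other genes moved with PBS replicate 4 too. Fibroblast markers, led by COL1A1 and SPARC, summed to 207 FPKM there, against 347 to 432 in PBS replicates 1 to 3 and 387 to 523 in gluconate tumors, with COL1A2, DCN, PDGFRA and POSTN under 0.5 FPKM in every library. Granulosa and theca markers, of which 2 of 7 (FOXL2 and AMH) had a mean of at least 1 FPKM, summed to 22.9 FPKM there, against 5.65 to 6.90 and 3.65 to 5.54, with INHA, CYP19A1, FSHR, CYP17A1 and STAR under 0.5 FPKM in every library. Germ cell markers summed to 4.81 FPKM there and 4.25 to 6.43 elsewhere, with DDX4, SYCP3 and FIGLA under 0.5 FPKM in every library, and myeloid markers, nearly all CD68, to 27.1 and 20.8 to 28.9. The part of depth or of other cell types in these shifts was not tested.

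Around the 39 genes, 9 lists of other genes were examined, of which 7 hold repair and checkpoint genes and the others hold S phase and mitosis genes and meiotic genes. Over their 136 tested genes, 1 was higher and 0 were lower at an unadjusted p under 0.05 with all 8 libraries, and 2 were higher and 2 lower without PBS replicate 4. These are 0.735% and 0% with all libraries, against 3.13% and 1.49% of all genes, and 1.47% each without PBS replicate 4, against 2.83% and 3.36%. Among 29 other recombination genes, 14 checkpoint partners, 11 genes of the 53BP1 and shieldin pathway, 10 end joining genes and 6 meiotic genes, 0 passed in either direction in both comparisons. Of 14 Fanconi-associated genes, CENPS was higher. It encodes a histone-fold protein that works with FANCM, and it measured 1.31, 1.66, 1.41 and 0.839 FPKM in PBS and 1.92, 2.38, 2.25 and 1.47 FPKM in gluconate tumors. Gluconate replicate 4 lay among the PBS tumors and the other 3 gluconate tumors above them. The log2 difference was 0.60 ± 0.23 (limma adjusted p = 0.740) and 0.42 ± 0.17 without PBS replicate 4 (limma adjusted p = 0.802), with adjusted p from 0.505 to 0.902 over all settings. A readthrough gene shares 64.7% of its exon bases, so its level is uncertain.

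Without PBS replicate 4, the others past the unadjusted test were APTX, a single-strand break repair gene (log2 difference 0.19 ± 0.08), PMS2 of mismatch repair (-0.24 ± 0.10), and UHRF1, a maintenance factor of DNA methylation in the S phase list (-0.23 ± 0.10). Each had an adjusted p of 0.802 in limma's fit. Over all settings the log2 difference of PMS2 ran from -0.24 to 0.11 and that of UHRF1 from -0.23 to 0.02. Of 13 single-strand break repair genes, 7 mismatch repair genes and 32 S phase and mitosis genes, these were the only ones. The lists of 13 and of 7 had medians of -0.05 and -0.03 on the log2 scale, and that of 32 had -0.02. GENCODE lists 10 numbered PMS2 pseudogenes, which makes its level uncertain.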

How the data were processed

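RNA from 8 OVCAR8 tumors in NSG mice (4 PBS, 4 gluconate) was analysed; 12 cell samples of the series were not analysed here. The authors deposited FPKM values, on GRCh38 per the labels. Aligner, counting, strand setting and the separation of mouse reads are not given in the sources used here. Columns headed C and T were read as PBS and gluconate from the axis of the study's volcano plot. FPKM steps gave whole fragments in 100% of values (within 0.001 fragments), hence each library's depth.

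Linear models were fitted with limma 3.58.1 (R 4.3.3), with eBayes moderation along the mean level, on log2(FPKM + 0.1) over 12486 genes with a mean of at least 0.5 FPKM. This scale understates the change of low genes. Simulated data were used to check the fit. Same-numbered PBS and gluconate libraries deviated with correlations of -0.18, 0.08, 0.17 and -0.06, so the numbers did not pair them. Exon overlaps used GENCODE 29, gene positions RefSeq and sequences RefSeq (GRCh38.p14), with Python 3.11.15.

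The genes and lists were chosen with earlier results of these data known. Values in every library were given for these of the 39 genes: the most abundant of each role, those with p under 0.05 or without overlap in the fit with all libraries or without PBS replicate 4, the 3 largest and 3 smallest differences, genes with 0 fragments in a library (none), genes 2-fold apart in PBS replicate 4, BRCA1 and BRCA2. Genes of other lists with p under 0.05 were named. A gene of the list of other recombination genes is not reported here.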

Additional observations from a re-analysis of the deposited data

Results flagged for a closer look

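In groups of 4 libraries, the lowest or highest value was compared with its nearest neighbor by Dixon's ratio. 3 of 78 groups (39 genes in 2 groups) were past its 95% critical value, and chance gives about 1 in 20, or 3.9. EXO1 had 8.70 FPKM in PBS replicate 4, against 11.6 to 12.1 FPKM in the other PBS tumors. BRCA1 had 1.52 FPKM in PBS replicate 4, against 2.31 to 2.34 FPKM, on 43 fragments. FANCD2 had 7.72 FPKM in gluconate replicate 2, against 6.00 to 6.06 FPKM in the other gluconate tumors, while PBS replicate 3 had 8.28 FPKM.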

How the results depend on the processing

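Over all genes tested, 13 were lower and 24 higher at an unadjusted p under 0.05 and 2-fold. The lower and higher counts were 3 and 5 with a pseudocount of 1, 20 and 9 after quantile normalization, 5 and 11 without moderation, 7 and 9 with voom, and 0 and 0 at an adjusted p under 0.05 in limma (577 genes had an unadjusted p under 0.05). Without a filter on low values 61 were higher. Leaving out each library in turn gave 5 to 46 lower and 3 to 64 higher, the extremes without gluconate replicate 3 and PBS replicate 3 for lower, and without PBS replicates 4 and 1 for higher.

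Of the 38 repair genes, 0 passed an unadjusted p under 0.05, and 1 did (BRCA2) after median-ratio scaling, quantile normalization, without moderation and with voom, or 2.63%, against 5.75%, 6.27%, 3.92% and 4.76% of all genes. Leaving out each library in turn gave 0 to 2, with CHEK2 and FANCF without PBS replicate 1 (5.26%, against 9.72% of all genes) and BRCA2 without PBS replicate 4 (2.63%, against 6.18%). By the same removals, a count added after the data were seen, the genes whose groups did not overlap also numbered 0 to 2: CHEK2 and FANCA without PBS replicate 1, UBE2T without PBS replicate 2, BRCA2 without PBS replicate 4 or gluconate replicate 1, and BARD1 without gluconate replicate 3. Over all genes this share ran from 4.93% to 11.4%. Of 644 values of single genes under an alternative, 637 kept their side of the threshold. The other 7 came to pass it, and with 0 of the 38 genes past it in the main fit there was no call to turn around. The median difference of the 38 genes ran from -0.06 to 0.08 on the log2 scale over all settings. With the replicate number as a block, which does not pair the samples, 15 genes were lower, 32 higher and 0 of the 38 passed, and PBS replicates 2 and 3 deviated most like the gluconate library of their own number while replicates 1 and 4 did not. The cause of these shifts was not tested. Depth limits PBS replicate 4, where 18 fragments stood behind RAD51B and FANCC.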
